A study of Homo sapiens with 24 samples.

Results

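The 87 genes described here encode the subunits of the oxidative phosphorylation system that are specified by the nucleus. The rule that picked them goes by name and uses no expression value, but it was set with earlier results of these data known. It takes protein-coding genes whose current RefSeq symbol begins with NDUFA, NDUFB, NDUFC, NDUFS or NDUFV (complex I, without the NDUFAF assembly factors). It also takes the SDH genes A to D (complex II) and the genes beginning with UQCR (complex III). The rest begin with COX4, COX5, COX6, COX7 or COX8 (complex IV) or with ATP5F1, ATP5M or ATP5P (complex V). At 24 h, 83 of them were among the 36955 genes tested, and at 48 h 82 of them were among 38213 genes tested. No probe was matched to ATP5MF-PTCD1, NDUFC2-KCTD14 and UQCRHL at either time or to COX7A1 at 48 h. The probe of COX8C, the testis form of subunit VIII, was at or below background at both times. The former NDUFA4 and NDUFA4L2 now carry COXFA symbols and CYC1 lies outside these prefixes, so these genes were not members.

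RNA came from LNCaP, an established prostate cancer cell line, grown in RPMI-1640 with serum and transfected by electroporation with 1 of 3 siRNA duplexes. The duplexes were a scrambled control (si-SCRL), si-A1 against the long non-coding RNA TAPIR-1 and si-A2 against the neighbouring long non-coding RNA TAPIR-2. Cells were collected at 24 h or at 48 h, with 4 biological replicates for each siRNA and time, which makes 24 one-colour Agilent arrays. The question addressed was which transcripts change when TAPIR-1 or TAPIR-2 is knocked down. Each target was represented by 1 siRNA in 1 cell line, so an effect of a duplex and an effect of losing its target cannot be told apart. Each siRNA also kept 1 column of the slides, so the column and the siRNA cannot be told apart either.

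The processed intensities were taken to log2 and quantile-normalised, and each value below is such a normalised log2 intensity or a difference between group means on that scale (log2 fold change). The 48 h array of si-A2 replicate 2 was dim, with a median processed intensity of 13.9 against 20.4 to 32.2 on the other 48 h arrays, and was left out unless stated, leaving 3 arrays in that group. On the 24 h arrays the median was 24.4 to 57.2, lowest on si-SCRL replicate 3. The brighter probe matched to TAPIR-2 by its transcript lay at 5.03 ± 0.18 (SD, n = 4) after si-SCRL and at 4.07 ± 0.74 (SD, n = 4) after si-A2 at 24 h, and at 4.64 ± 0.59 (SD, n = 4) and 4.69 ± 0.90 (SD, n = 3) at 48 h. The difference after si-A2 was -0.97 at 24 h and 0.24 at 48 h and did not pass (limma adjusted p = 0.253 and 0.742). A second TAPIR-2 probe on the 48 h version was well above background on 0 arrays and stood at -0.58 after si-A2 and -0.77 after si-A1 (adjusted p = 0.676 and 0.412). TAPIR-1 had no matched probe, so the arrays gave no clear readout of either knockdown. KLK3, KLK2, TMPRSS2, FOLH1, KRT8, KRT18 and EPCAM, which mark luminal prostate cells, were well above background on every array used, and KRT5 and CHGA, which mark basal and neuroendocrine cells, were so on none. COL1A1 of fibroblasts was well above background on 3 of 12 arrays at 24 h and on 0 of 11 at 48 h, whereas the probes of PTPRC (leukocytes) and PECAM1 (endothelium) ran from no array to all 12 at 24 h. A lower intensity in these bulk samples can come from less RNA per cell or from fewer cells of a kind, and these cannot be told apart.

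Oxidative phosphorylation passes electrons from NADH (complex I) and succinate (complex II) through ubiquinone and complex III to cytochrome c and complex IV, which reduces oxygen. Complexes I, III and IV pump protons across the inner mitochondrial membrane, and complex V, the ATP synthase, uses the return flow to make ATP. Complex II is the only one of the 5 that is built from nuclear-encoded subunits alone, and it is also an enzyme of the tricarboxylic acid cycle.

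Few of the subunit transcripts passed the test, and those that did against the control were ATP5F1B, SDHB, NDUFS3 and SDHA, all lower after si-A1. A transcript was counted as changed at an adjusted p below 0.01 in the limma fit over all genes together with a log2 fold change of 0.5 or more in size. After si-A1, 1 of 83 subunits was lower at 24 h (0.942% of all genes tested were lower) and 4 of 82 were lower at 48 h (3.55% of all genes tested). None was higher (0.0731% of all genes were higher at 24 h and 2.14% at 48 h). With the dim si-A2 array kept in the fit, the 48 h decreases after si-A1 had nearly the same size (ATP5F1B -1.45, SDHB -1.39, NDUFS3 -0.83 and SDHA -0.73) and none of them passed. After si-A2, none of the 83 subunits changed at 24 h (0.901% of all genes did) and none of the 82 changed at 48 h (0.406% of all genes did). At an unadjusted p below 0.05, 5 subunits passed after si-A2 at 24 h (11.1% of all genes) and 6 at 48 h (17.1% of all genes). At the wider threshold of an adjusted p below 0.05 with no minimum change, 2 subunits were lower after si-A1 at 24 h (1.75% of all genes), and 8 were lower and 1 higher at 48 h (6.91% and 7.91% of all genes). After si-A2, 1 was lower at 24 h (1.37% of all genes) and 3 were lower at 48 h (1.87% of all genes). Both comparisons use the same si-SCRL arrays, and si-A2 was therefore also compared with si-A1 directly. In that comparison ATP5F1B and SDHB were higher after si-A2 at 24 h (2 of 83, against 0.208% of all genes), and ATP5F1B, SDHB, ATP5MJ and NDUFS3 were higher at 48 h (4 of 82, against 0.898% of all genes). With the replicate number as a block, 1 of these 4 passed at 48 h, ATP5F1B, and all 4 decreases after si-A1 at 48 h still passed. Groups whose arrays did not overlap were found for 7 of 83 subunits after si-A1 and 11 of 83 after si-A2 at 24 h (8.82% and 7.23% of all genes), and for 11 and 10 of 82 at 48 h (14.8% and 10.7% of all genes). Between si-A2 and si-A1 they were found for 14 of 83 at 24 h and 20 of 82 at 48 h (10% and 13.8% of all genes).

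**Figure D1:**
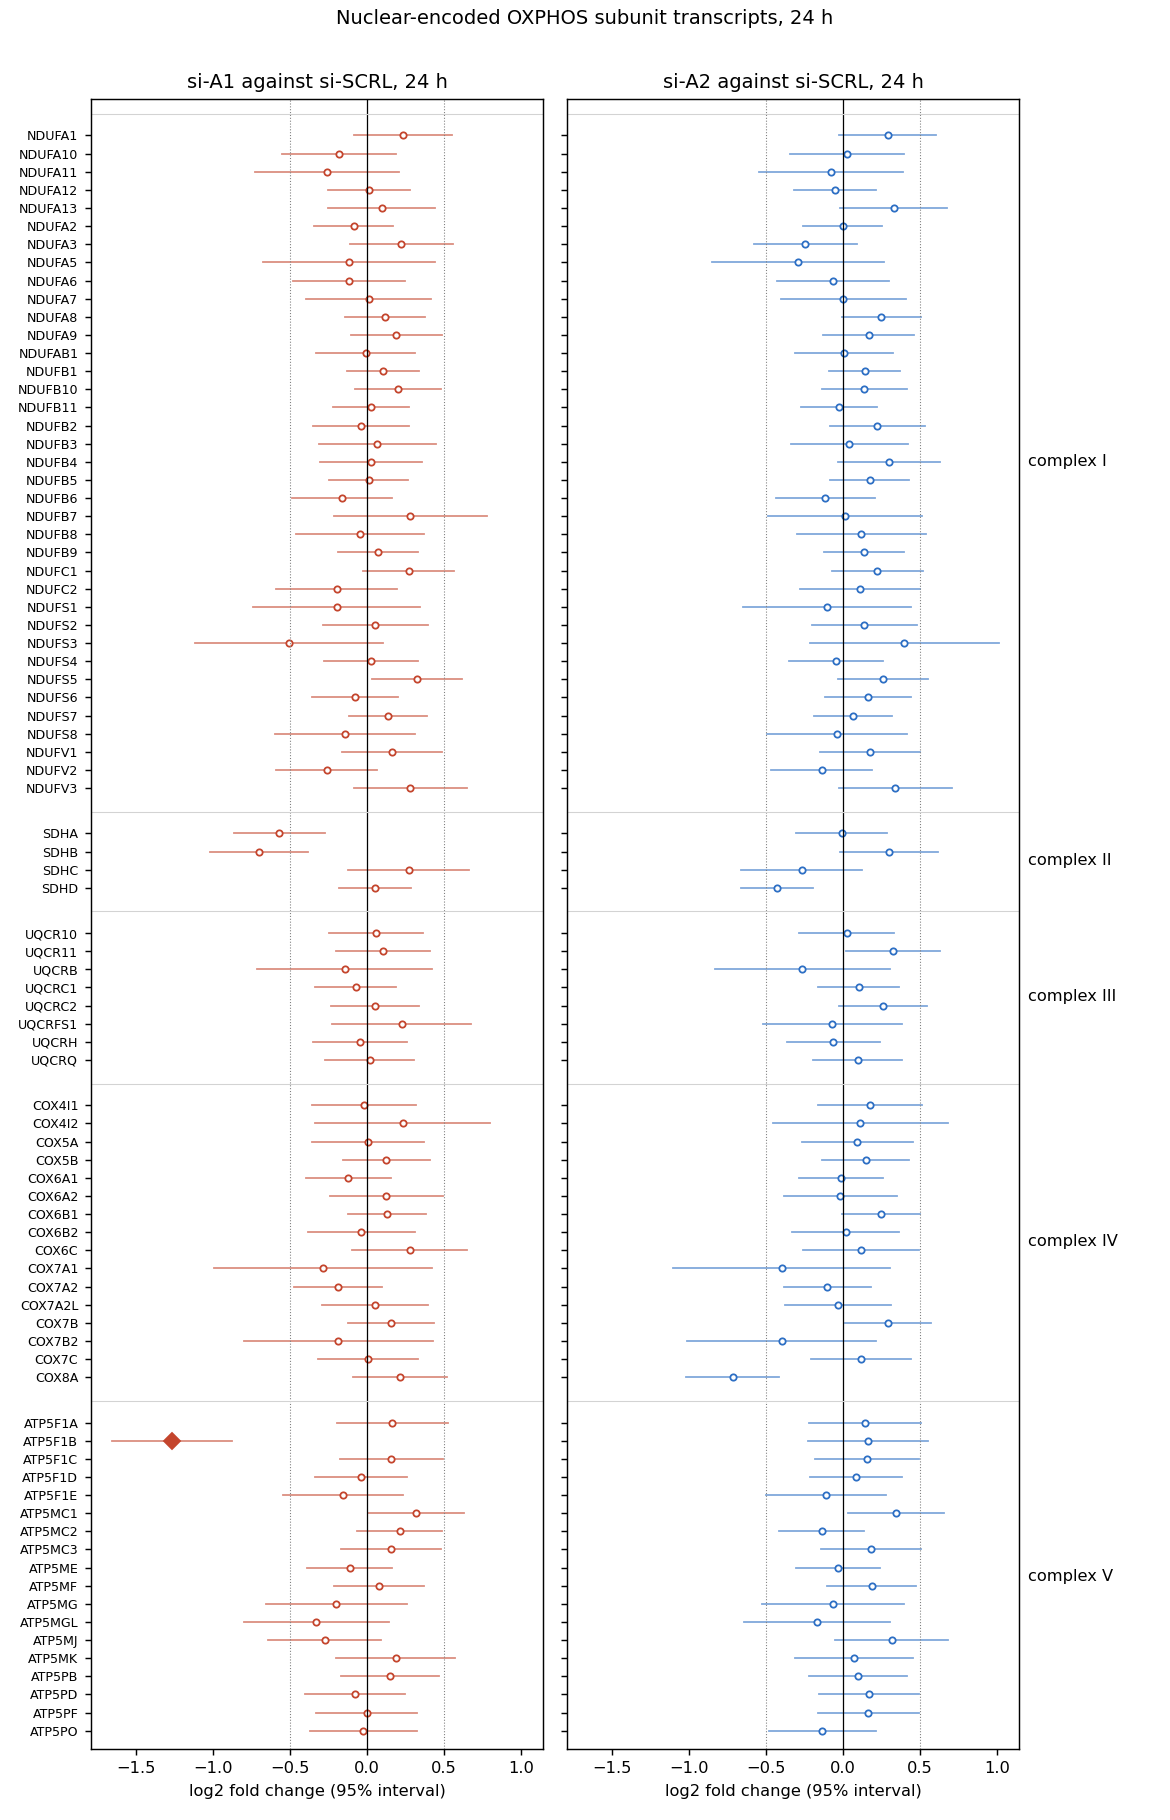
Log2 fold change of each subunit transcript at 24 h (points) with its 95% interval (lines), si-A1 against si-SCRL on the left and si-A2 against si-SCRL on the right, grouped by complex. Filled diamonds are transcripts that passed the test, and dotted lines mark 0.5 in either direction. Only ATP5F1B, at -1.27 after si-A1, passed.

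**Figure D2:**
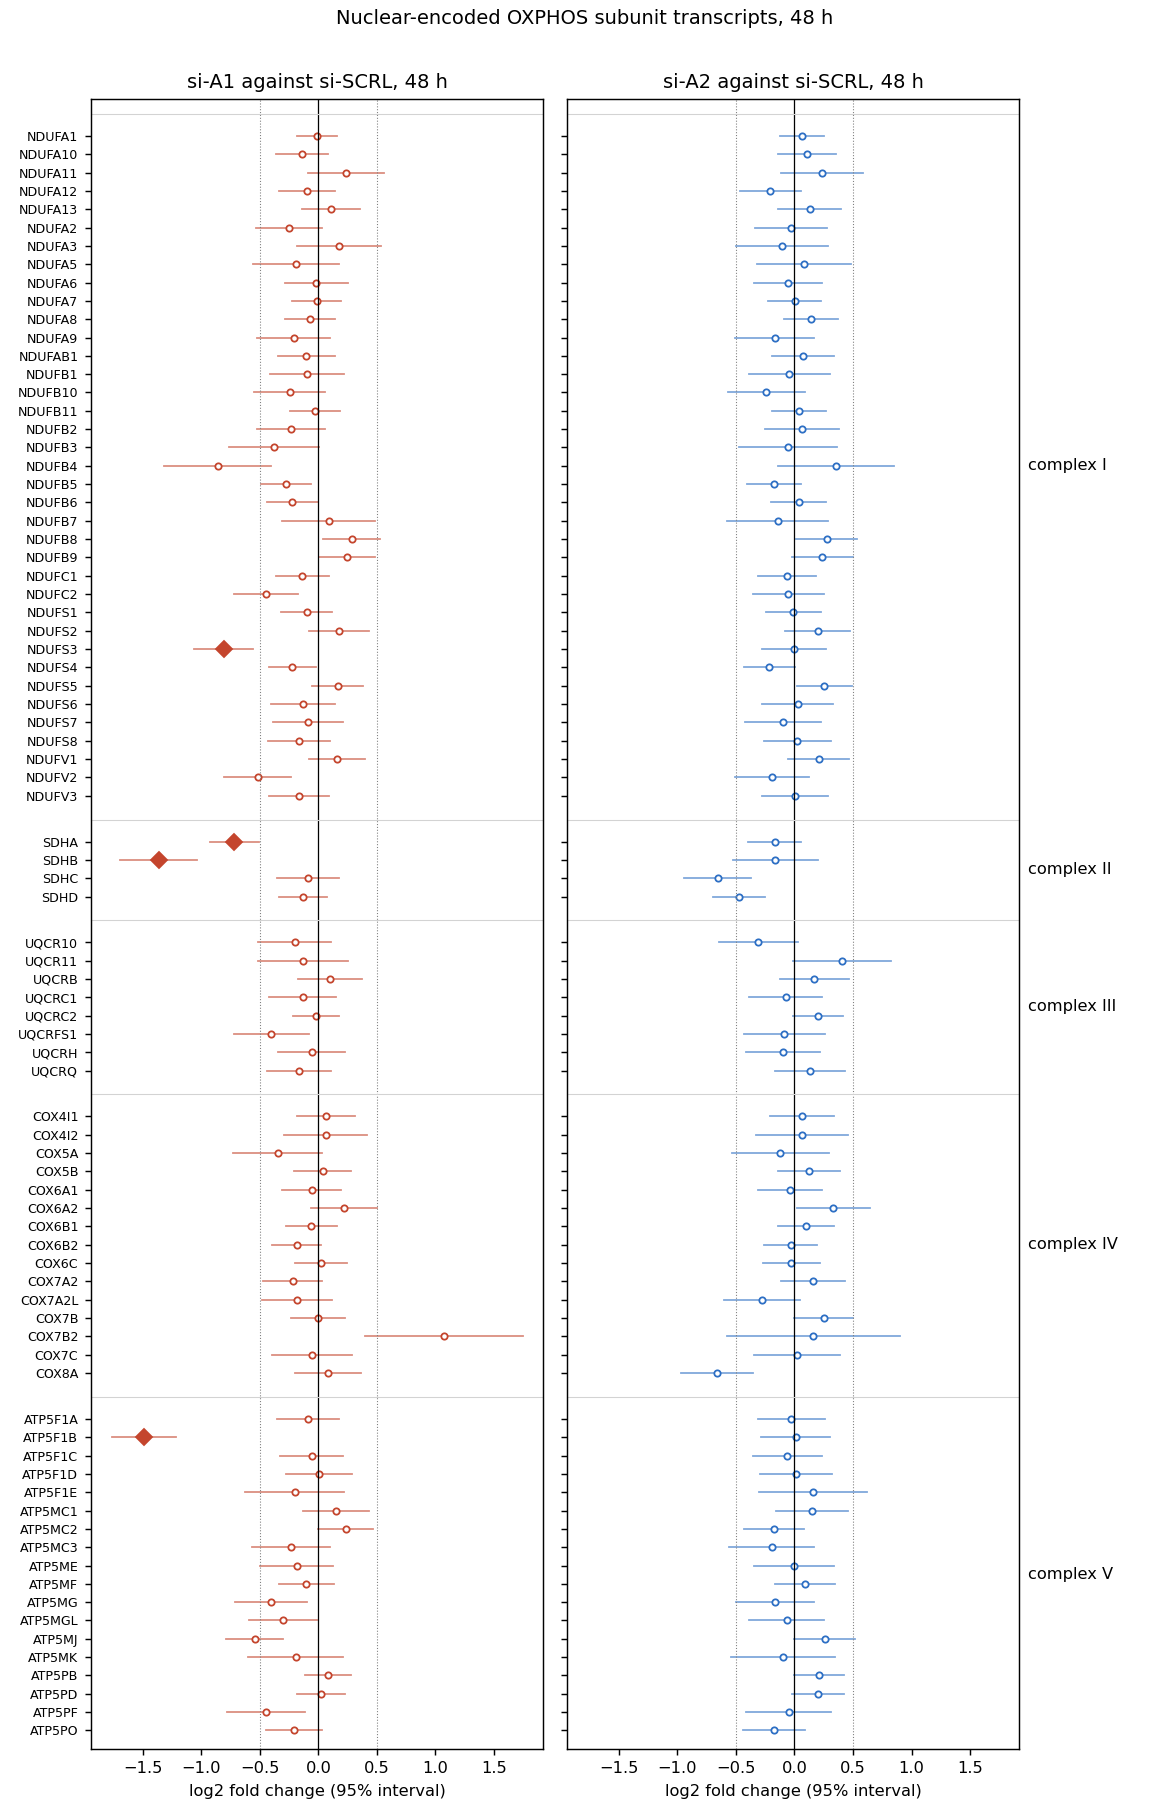
The same at 48 h. ATP5F1B, SDHB, NDUFS3 and SDHA passed after si-A1, between -1.49 and -0.72, and no transcript passed after si-A2, where COX8A and SDHC lay lowest at -0.66.

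As a group the subunits did not move far. The median log2 fold change of the subunits at 24 h was 0.02 after si-A1 (0.06 over all genes tested) and 0.09 after si-A2 (0.05 over all genes). At 48 h it was -0.10 after si-A1, with 60 of 82 subunits below 0, while the median of all genes was 0.06, with 16183 of 38213 below 0. After si-A2 at 48 h it was -0.00, with 41 of 82 below 0 (0.02 over all genes, with 18153 below 0). Between si-A2 and si-A1 at 48 h, 63 of 82 subunits were higher after si-A2 (44.2% of all genes), with a median of 0.09 against -0.04 for all genes. The median deviation of the subunits from the si-SCRL mean was -0.27, -0.04, -0.13 and -0.04 on the 4 si-A1 arrays at 48 h and -0.01, -0.11, 0.11 and 0.06 on the 4 si-SCRL arrays. The si-A1 arrays thus overlapped with the control arrays. On the si-A2 arrays of replicates 1, 3 and 4 the median deviation was -0.07, -0.04 and 0.21, which overlapped with the si-A1 arrays as well. Within the first slide the si-A1 median at 48 h was -0.05 and within the second -0.16.

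For most subunits the arrays bounded the change to within 0.5. The 95% interval of the log2 fold change lay within 0.5 of 0 for 51 of 83 subunits after si-A1 and 47 of 83 after si-A2 at 24 h (19.5% and 21.3% of all genes). At 48 h it did so for 53 of 82 after si-A1 and 60 of 82 after si-A2 (32.6% and 34.4% of all genes). The residual SD of a subunit was 0.175 at 24 h and 0.156 at 48 h in the median, against 0.331 and 0.233 over all genes. Most subunit probes were much brighter than the median spot, and all genes were not matched to them for brightness. Whether the narrower spread goes beyond brightness was not tested. No interval after si-A2 at 48 h reached beyond 1 in either direction.

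**Figure D3:**
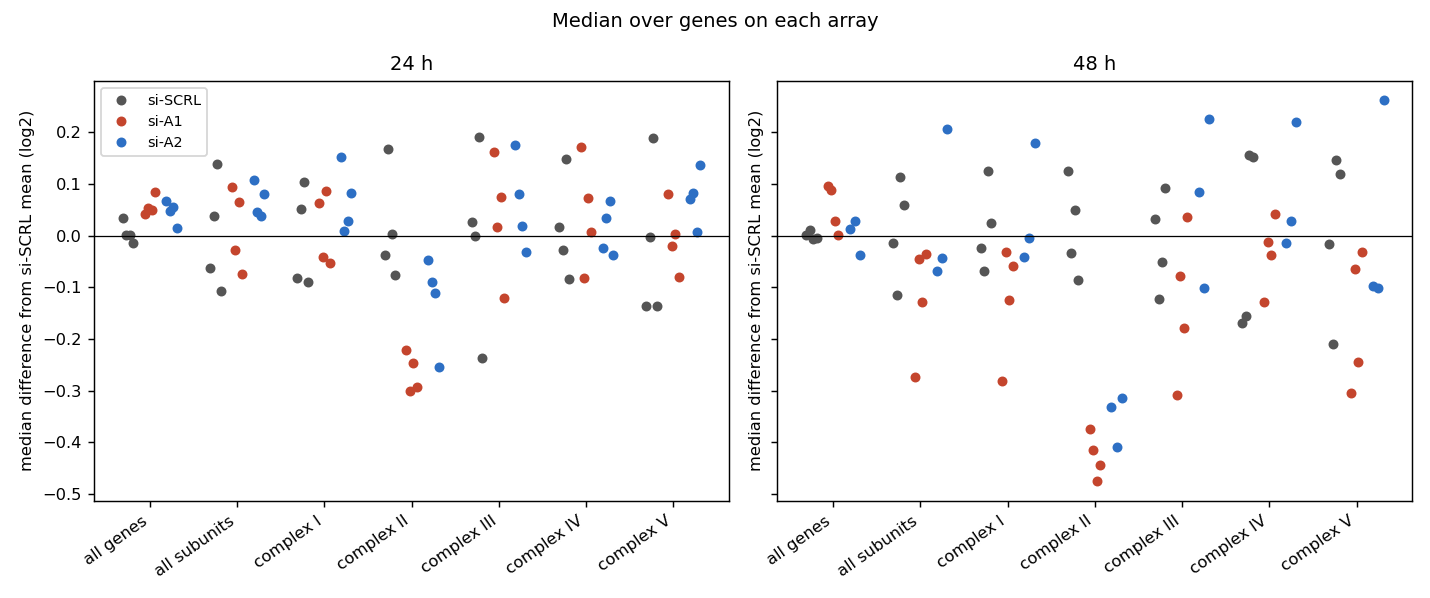
Median difference from the si-SCRL mean on each array (points), over all genes, over all subunits and over each complex, at 24 h (left) and 48 h (right), coloured by siRNA. For complex II at 48 h the si-A1 and the si-A2 arrays all lie below the si-SCRL arrays.

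In complex II, 2 of the 4 subunits passed against si-SCRL, both lower after si-A1 at 48 h (3.55% of all genes were lower). These were SDHA, the flavoprotein that oxidises succinate, and SDHB, the iron-sulfur protein that takes up its electrons. SDHA passed with its brightest probe but not with the median over its 4 probes. SDHC and SDHD, the membrane anchors that hand the electrons to ubiquinone, passed in no comparison, and their values at 48 h were -0.08 and -0.13 after si-A1 and -0.66 and -0.47 after si-A2.

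For SDHB the 48 h values were 9.41, 8.90, 8.95 and 8.70 on the si-SCRL arrays, 7.45, 7.65, 7.74 and 7.66 after si-A1 and 8.82, 8.79 and 8.84 after si-A2. Every si-A1 array lay below the lowest control array, and the si-A2 arrays fell among the controls. The log2 fold change after si-A1 was -1.36 (SE 0.15, limma adjusted p = 0.000534), which is 2.57-fold lower, and after si-A2 it was -0.16 (95% interval -0.52 to 0.20). The si-A2 level of SDHB exceeded that of si-A1 by 1.2 (SE 0.16, adjusted p = 0.00492). At 24 h its values were 9.08, 9.52, 9.34 and 9.40 after si-SCRL, 8.74, 8.61, 8.68 and 8.51 after si-A1 and 9.66, 9.59, 9.43 and 9.85 after si-A2. The si-A1 group again did not overlap with the others. Its log2 fold change against si-SCRL was -0.70 and missed the threshold (adjusted p = 0.0308), whereas the difference between si-A2 and si-A1 was 1.00 and passed (adjusted p = 0.00884). That call was lost in 10 of 12 cases with 1 array left out, all but those without si-SCRL replicate 1 or 3 (adjusted p up to 0.0464), and the same call at 48 h in 7 of 11, the cases without any one si-A1 or si-A2 array (adjusted p up to 0.037).

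SDHA had 9.35, 9.35, 9.36 and 9.34 after si-A1 at 48 h, against 10.12, 9.97, 10.21 and 9.97 after si-SCRL and 9.87, 9.80 and 10.04 after si-A2. The si-A1 arrays lay below all others. Its difference from si-SCRL was -0.72 after si-A1 (SE 0.09, adjusted p = 0.00139) and -0.17 after si-A2 (95% interval -0.40 to 0.06). At 24 h, SDHA lay at 9.94, 9.93, 9.99 and 9.87 after si-A1, below the range of 10.28 to 10.67 on the control arrays. That difference of -0.57 did not pass (adjusted p = 0.0633). Its other 3 probes were lower after si-A1 as well, by -0.51 to -0.33 at 24 h and by -0.42 to -0.35 at 48 h, so the brightest probe, which stands for the gene, gave the largest value at both times. With the median over the 4 probes in its place the 48 h difference was -0.39 (adjusted p = 0.0116). RefSeq holds 4 pseudogenes named after SDHA, and the probe of 1 of them, SDHAP4, was at -0.37 after si-A1 at 48 h (adjusted p = 0.0238) and at -0.34 after si-A2.

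SDHD had 9.26, 9.33, 9.33 and 9.39 after si-A2 at 24 h, below all 4 control arrays (9.75, 9.69, 9.76 and 9.83) and all 4 si-A1 arrays (9.87, 9.73, 9.82 and 9.80). At 48 h its values were 8.66, 8.58 and 8.64 after si-A2, 9.32, 9.18, 8.89 and 9.11 after si-SCRL and 9.10, 9.01, 8.88 and 8.98 after si-A1. The si-A2 group lay apart from both others at both times. The log2 fold change after si-A2 was -0.43 at 24 h (SE 0.11, adjusted p = 0.087) and -0.47 at 48 h (SE 0.10, adjusted p = 0.0416). Neither passed, the 2 values being under the minimum of 0.5 as well. The 2 dimmer SDHD probes gave -0.70 and -0.74 at 24 h and -0.61 and -0.48 at 48 h. RefSeq holds 7 pseudogenes named after SDHD and 5 named after SDHC, none of which was matched to a probe, and whether they add to these signals was not tested.

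SDHC lay at 9.74, 9.64 and 9.60 after si-A2 at 48 h, at 10.13, 10.34, 10.57 and 10.25 after si-SCRL and at 10.30, 10.39, 10.11 and 10.16 after si-A1. The si-A2 arrays did not overlap with either group. The log2 fold change after si-A2 was -0.66 (SE 0.13, adjusted p = 0.0339) and that after si-A1 was -0.08 (95% interval -0.35 to 0.18). The difference between si-A2 and si-A1 was -0.57 (adjusted p = 0.0408). At 24 h the control arrays of SDHC spread from 11.07 to 11.88, and the difference after si-A2 was -0.27 (adjusted p = 0.641). A second probe gave -0.61 after si-A2 at 48 h. The third and dimmest probe gave -0.65 after si-A2 and -0.88 after si-A1 at that time.

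**Figure D4:**
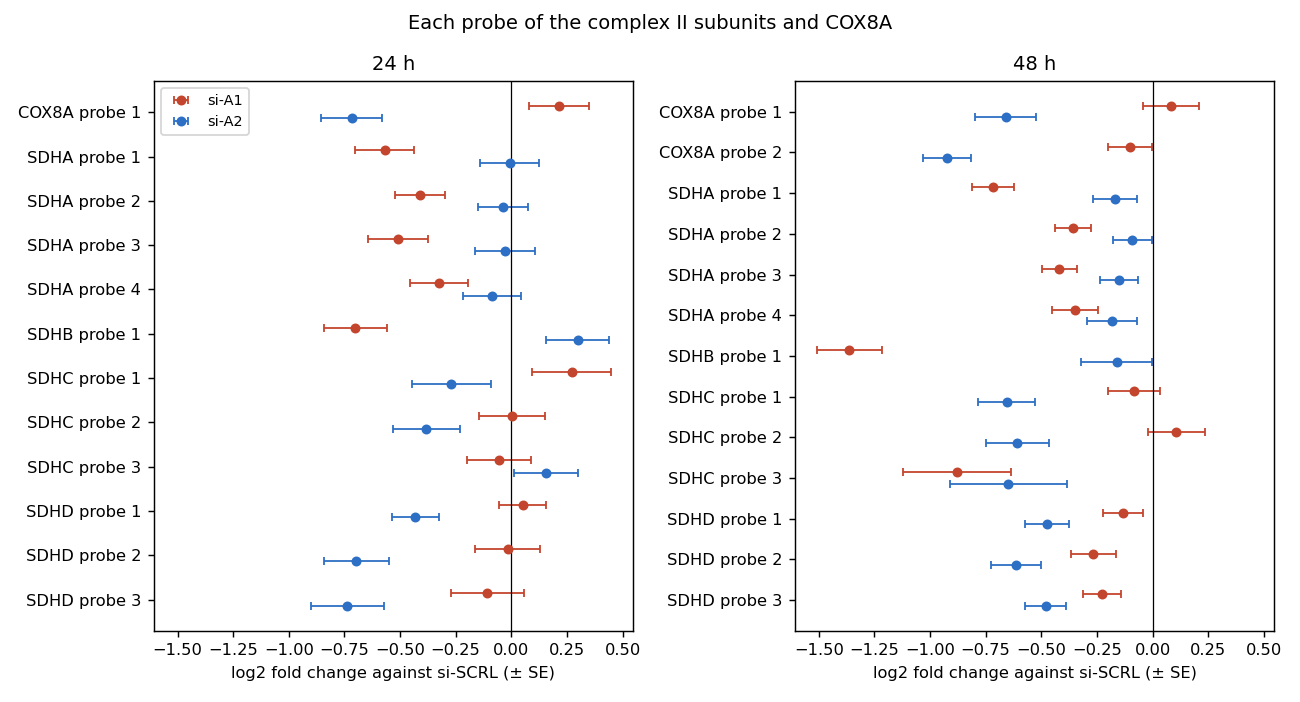
Log2 fold change against si-SCRL (points, with SE) of each probe of COX8A and of the complex II subunits that was above background, after si-A1 and after si-A2, at 24 h (left) and 48 h (right). Probes of a gene are numbered from the brightest. The 4 SDHA probes and the SDHB probe lie to the left of 0 after si-A1, and the 3 SDHD probes lie to the left after si-A2, at both times.

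The sequences upstream of SDHA, SDHB, SDHD and COX8A are shown because promoters of these subunits are known to share binding sequences of NRF1 and of GABP, an ETS factor. Each is the stretch of 250 bases before the RefSeq transcription start in GRCh38.p14, written 5′ to 3′ on the strand of the gene. SDHA lies at chr5:218070-218319 (plus strand), SDHB at chr1:17054033-17054282 (minus strand) and SDHD at chr11:112086623-112086872 (plus strand). COX8A, the complex IV subunit described further on, lies at chr11:63974370-63974619 (plus strand). Capitals mark matches on either strand to the palindromic NRF1 sequence with any middle base and to CCGGAAG (ETS).
SDHA: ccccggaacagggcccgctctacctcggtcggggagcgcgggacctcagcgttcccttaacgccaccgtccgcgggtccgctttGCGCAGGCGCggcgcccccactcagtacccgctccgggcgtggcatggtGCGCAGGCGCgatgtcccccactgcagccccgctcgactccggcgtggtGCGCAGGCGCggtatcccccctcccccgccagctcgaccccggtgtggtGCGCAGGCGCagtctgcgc
SDHB: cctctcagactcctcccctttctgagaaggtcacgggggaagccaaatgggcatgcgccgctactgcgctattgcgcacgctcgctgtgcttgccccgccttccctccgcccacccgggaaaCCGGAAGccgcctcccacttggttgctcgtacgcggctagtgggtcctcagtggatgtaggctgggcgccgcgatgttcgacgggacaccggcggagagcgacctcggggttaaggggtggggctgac
SDHD: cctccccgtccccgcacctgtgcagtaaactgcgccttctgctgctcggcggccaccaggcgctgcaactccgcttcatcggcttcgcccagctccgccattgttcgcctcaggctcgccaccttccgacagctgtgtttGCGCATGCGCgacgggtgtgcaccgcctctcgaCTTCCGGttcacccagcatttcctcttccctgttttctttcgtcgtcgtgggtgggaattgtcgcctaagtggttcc
COX8A: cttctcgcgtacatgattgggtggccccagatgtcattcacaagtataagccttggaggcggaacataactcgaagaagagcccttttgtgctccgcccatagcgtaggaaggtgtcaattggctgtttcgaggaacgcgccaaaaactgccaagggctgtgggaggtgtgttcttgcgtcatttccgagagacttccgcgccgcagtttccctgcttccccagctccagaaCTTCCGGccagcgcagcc
The SDHA stretch held 4 NRF1 matches and no ETS match, and the SDHB stretch held 1 ETS match and no NRF1 match. The SDHD stretch held 1 of each, and the COX8A stretch held 1 ETS match alone. That of NDUFS3, which is not shown, held 2 ETS matches. Of the 70 subunits with an upstream sequence, 15 (21.4%) held the NRF1 sequence and 17 (24.3%) the ETS sequence, against 5.53% and 8.82% of 27305 upstream sequences of all genes. The sequence TTTGAA (the CHR element of cell cycle genes) was found upstream of 2 of the 70 subunits (2.86%) and of 13.6% of all genes. TTTCCCGC and TTTGGCGC, letters that E2F factors bind, were found upstream of 2 subunits each (2.86%), against 1.42% and 0.553% of all genes, and the COX8A stretch held 1 of them. AAGATGGCG (YY1) was found upstream of 1 subunit (1.43%, against 0.641% of all genes) and TCAAGGTCA (ESRRA) upstream of 0 (0.319% of all genes). The shares were not adjusted for base composition, and the stretches shown ran from 56% (COX8A) to 75.2% (SDHA) G and C. No upstream sequence was available for ATP5F1B or SDHC. Such a match is a run of letters and not a measured binding site.

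In complex V a single subunit stood out. ATP5F1B, the catalytic beta subunit of the ATP synthase, had the largest decrease of all subunits after si-A1 at both times. At 24 h its values were 12.69, 13.21, 13.17 and 12.92 after si-SCRL, 11.90, 11.72, 11.83 and 11.46 after si-A1 and 13.26, 13.04, 12.89 and 13.43 after si-A2. All 4 si-A1 arrays lay below all 8 others. The log2 fold change was -1.27 after si-A1 (SE 0.18, adjusted p = 0.00335), 2.41-fold lower, and 0.16 after si-A2 (95% interval -0.23 to 0.55). At 48 h it had 12.58, 12.49, 12.84 and 12.50 after si-SCRL, 10.94, 11.07, 11.08 and 11.34 after si-A1 and 12.45, 12.56 and 12.93 after si-A2. The gap had the same form, and no si-A1 array came within 1 of a control array. Against si-SCRL it stood at -1.49 after si-A1 (SE 0.12, adjusted p = 0.00013), 2.81-fold lower, and 0.01 after si-A2 (95% interval -0.29 to 0.31). Its si-A2 level exceeded the si-A1 level by 1.43 at 24 h (adjusted p = 0.00407) and by 1.5 at 48 h (adjusted p = 0.0012). With 1 array left out the 24 h adjusted p after si-A1 went from 0.00402 to 0.0172, and the threshold was missed for 6 of the 12 arrays (replicates 2, 3 and 4 of si-SCRL and of si-A1), whereas at 48 h it was kept for all 11. Between si-A2 and si-A1 it was missed at 24 h without any one of the 8 arrays of these groups (adjusted p up to 0.0241) and at 48 h without si-A2 replicate 1 (adjusted p = 0.011). The array carried 1 probe for ATP5F1B.

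ATP5F1A, the alpha subunit that alternates with beta in the catalytic head, did not follow it. Its log2 fold change after si-A1 was 0.17 at 24 h and -0.09 at 48 h (adjusted p = 0.693 and 0.688). ATP5PO, the stalk subunit that confers oligomycin sensitivity, was at -0.02 and -0.21. Among the 3 genes for the membrane ring subunit c, ATP5MC1 and ATP5MC2 were at 0.32 and 0.21 after si-A1 at 24 h and at 0.15 and 0.23 at 48 h, and ATP5MC3 was at 0.16 and -0.24. None of these passed. After si-A2 the complex V values ran from -0.17 (ATP5MGL) to 0.35 (ATP5MC1) at 24 h and from -0.19 (ATP5MC3) to 0.26 (ATP5MJ) at 48 h. The ATP5MGL control arrays at 24 h spread from 8.89 to 10.02, with a median of 9.16 beside 9.15 after si-A2.

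ATP5MJ, a small membrane subunit of complex V, had 6.28, 6.27, 6.31 and 6.23 after si-A1 at 48 h, 7.01, 6.87, 6.86 and 6.54 after si-SCRL and 7.16, 6.89 and 7.11 after si-A2. The si-A1 arrays lay below the rest. The difference from si-SCRL was -0.55 and stood just outside the threshold (adjusted p = 0.0102), and the si-A2 level exceeded the si-A1 level by 0.80 (SE 0.12, adjusted p = 0.00698). The latter was lost in 9 of 11 cases with 1 array left out, all but those without si-SCRL replicate 3 or 4 (adjusted p up to 0.055). At 24 h the si-A1 values of 7.62 to 8.02 overlapped with the control values of 7.79 to 8.37.

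**Figure D5:**
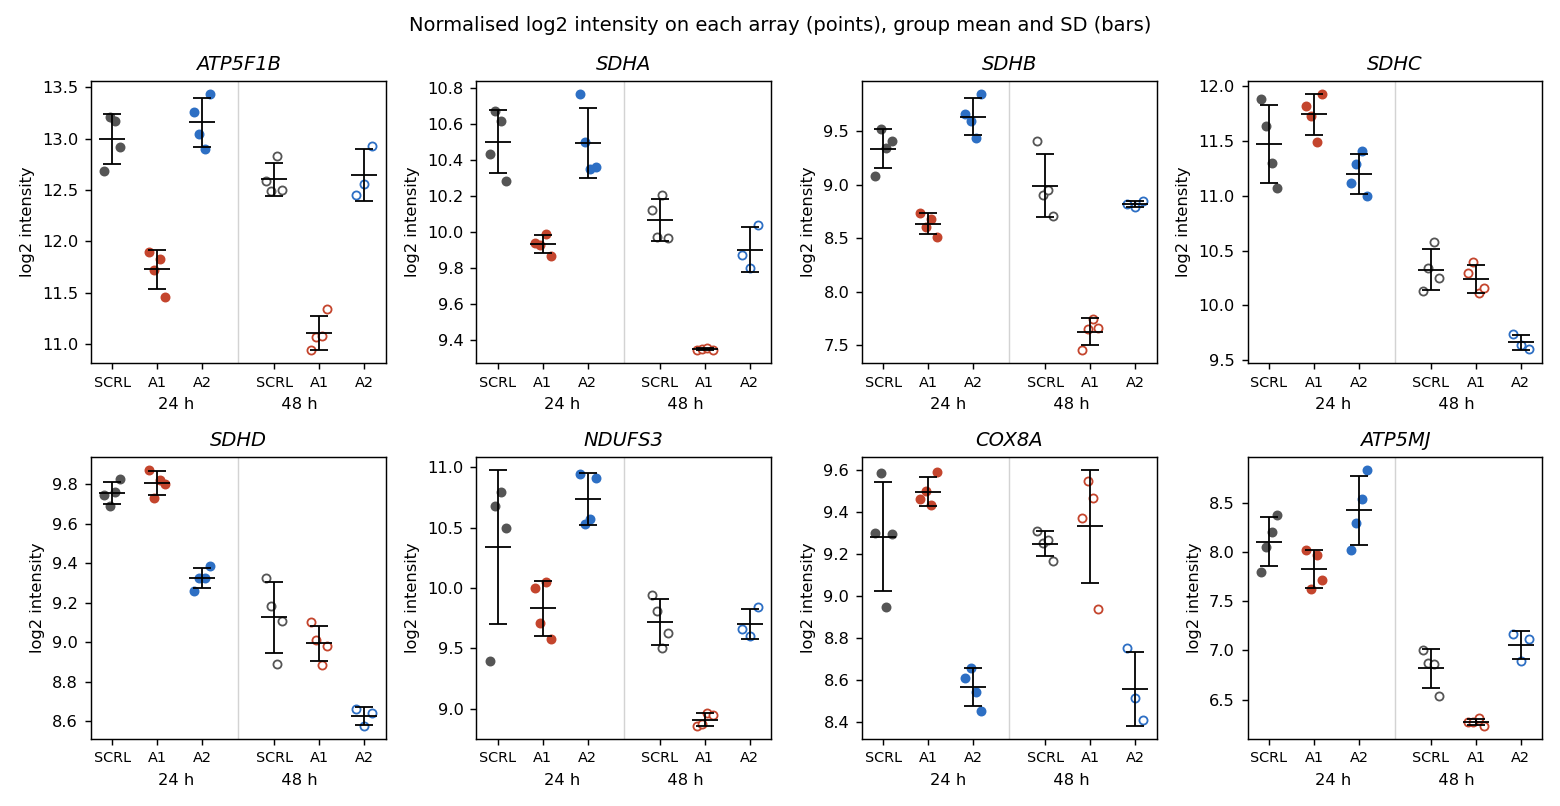
Normalised log2 intensity on each array (points; filled at 24 h, open at 48 h) with group mean and SD (bars) for the 8 subunits described with per-array values. ATP5F1B, SDHA, SDHB and NDUFS3 are lowest after si-A1 at 48 h, whereas SDHC, SDHD and COX8A are lowest after si-A2.

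In complex I, 37 subunits were tested at each time and 1 passed, lower after si-A1 at 48 h (3.55% of all genes were lower). NDUFS3, a core subunit of the arm that carries electrons from NADH to ubiquinone, had 8.86, 8.87, 8.96 and 8.94 after si-A1 at 48 h. The control arrays had 9.94, 9.81, 9.50 and 9.62 and the si-A2 arrays 9.66, 9.60 and 9.84, so that si-A1 lay apart from both. NDUFS3 differed from si-SCRL by -0.81 after si-A1 (SE 0.11, adjusted p = 0.00202) and -0.01 after si-A2 (95% interval -0.28 to 0.27), and the difference between si-A2 and si-A1 was 0.80 (adjusted p = 0.00859), a call lost in 10 of 11 cases with 1 array left out, all but that without si-SCRL replicate 3 (adjusted p up to 0.0425). At 24 h it had 9.40, 10.68, 10.80 and 10.50 after si-SCRL and 10.00, 9.71, 10.05 and 9.57 after si-A1. The low control array, replicate 1, made the difference smaller, which was -0.51 after si-A1 and did not pass (adjusted p = 0.486). The si-A2 arrays, at 10.94, 10.53, 10.58 and 10.91, lay above all si-A1 arrays, and that difference of 0.91 did not pass either.

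NDUFB4, an accessory membrane subunit, was at -0.86 after si-A1 at 48 h (adjusted p = 0.0218). Its control arrays fell apart by slide, at 10.70 and 10.71 on the first and 11.64 and 11.39 on the second, and the difference was -0.39 within the first slide and -1.34 within the second. NDUFV2 and NDUFC2, a core and an accessory subunit, were at -0.52 and -0.45 after si-A1 at 48 h without passing (adjusted p = 0.0266 and 0.0395). The 2 probes of NDUFV2 gave -0.52 and -0.28. NDUFS1 and NDUFV1, the iron-sulfur and flavin subunits of the NADH-oxidising tip, were at -0.20 and 0.16 after si-A1 at 24 h. At 48 h they were at -0.10 and 0.16. The NDUFS1 control arrays at 24 h spread from 10.09 to 11.45, with a median of 10.27 beside 10.31 after si-A1. NDUFB8, often followed as a marker of assembled complex I, was at 0.28 after either siRNA at 48 h (adjusted p = 0.115 after si-A1 and 0.267 after si-A2). NDUFS5 had the largest difference above 0 in complex I after si-A1 at 24 h, 0.33 (adjusted p = 0.337). After si-A2 the complex I values ran from -0.29 (NDUFA5) to 0.40 (NDUFS3) at 24 h and from -0.24 (NDUFB10) to 0.35 (NDUFB4) at 48 h. The NDUFA5 control arrays at 24 h spread from 5.80 to 7.27, with a median of 6.31 beside 6.24 after si-A2.

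In complex III none of the 8 subunits tested passed in any comparison with the brightest probe standing for the gene. UQCRFS1, the Rieske iron-sulfur protein, had the lowest value after si-A1 at 48 h, -0.40 (adjusted p = 0.0943), but 0.23 at 24 h. UQCRC1 and UQCRC2, the core proteins, were between -0.13 and 0.05 after si-A1 and between -0.08 and 0.26 after si-A2 at the 2 times. UQCR11 had the highest values after si-A2, 0.33 at 24 h and 0.40 at 48 h (adjusted p = 0.408 and 0.309). UQCRB was lowest at 24 h, at -0.14 after si-A1 and -0.27 after si-A2. Its control arrays at 24 h spread from 9.84 to 11.36, and the highest, si-SCRL replicate 3, pulled both differences down. The UQCRB control median was 10.12, beside 10.22 after si-A1 and 10.07 after si-A2. That replicate, the dimmest array at 24 h, also held the highest 24 h control value of ATP5MGL, NDUFS1 and NDUFA5, so these spreads share 1 array. UQCR10 was lowest after si-A2 at 48 h, at -0.31. The 3 UQCR10 probes disagreed after si-A1 at 48 h, at -0.20, 0.02 and -0.86, and the last, the dimmest, passed among all probes (adjusted p = 0.00805). At 24 h that dimmest probe was at 0.53 after either siRNA (adjusted p = 0.586 after si-A1 and 0.663 after si-A2). A dim second UQCRB probe was at -1.68 after si-A2 at 48 h (adjusted p = 0.0919), where the first was at 0.17. UQCRH, the hinge protein, was between -0.10 and -0.04 against si-SCRL throughout, and its second, dimmer probe between -0.23 and -0.05.

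In complex IV none of the 16 subunits tested at 24 h or the 15 tested at 48 h passed, and COX8A came closest. COX8A, the ubiquitous form of the small membrane subunit VIII, had 8.61, 8.66, 8.54 and 8.45 after si-A2 at 24 h, 9.30, 9.59, 8.95 and 9.30 after si-SCRL and 9.46, 9.50, 9.44 and 9.59 after si-A1. At 48 h it had 8.75, 8.51 and 8.41 after si-A2, 9.31, 9.25, 9.27 and 9.17 after si-SCRL and 9.37, 9.55, 9.47 and 8.94 after si-A1. The si-A2 arrays lay below all others at both times. The log2 fold change after si-A2 was -0.72 at 24 h (SE 0.14, adjusted p = 0.0254) and -0.66 at 48 h (SE 0.13, adjusted p = 0.0406). Against si-A1 it was -0.93 (adjusted p = 0.0106) and -0.74 (adjusted p = 0.0187). A second probe, present on the 48 h array version, gave -0.93 after si-A2 and passed among all probes (adjusted p = 0.00679), and the difference within each slide ran the same way. After si-A1 COX8A was at 0.21 and 0.08.

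The other complex IV subunits gave little. COX4I1, COX5B, COX6C and COX7C, structural subunits around the catalytic core, were between -0.06 and 0.28 after either siRNA at both times. COX5A was at -0.35 after si-A1 at 48 h (adjusted p = 0.218). Its probe averaged 5.62 there, and a second, dimmer probe, at 3.87, gave -0.69. At 24 h the used and the second probe gave 0.01 and -0.33 after si-A1, and 0.09 and 0.53 after si-A2. Of the paired isoforms, COX4I1 was at 0.06 and COX4I2 at 0.06 after si-A1 at 48 h. COX6A1 was at -0.06 and COX6A2, the muscle form, at 0.22. COX6B1 was at -0.06 and COX6B2, the testis form, at -0.18. The COX6B2 probe used averaged 17.51 at 48 h, and a second, far dimmer probe, at 6.88, gave 0.12 after si-A1. The sign of the COX6B2 value thus rests on the probe chosen. COX7A2 was at -0.22 and COX7A2L, which joins complexes III and IV, at -0.18 (0.26 with its second probe), and COX7A1, the muscle form, was at -0.29 after si-A1 and -0.40 after si-A2 at 24 h. After si-A2 the highest complex IV values were 0.29 for COX7B at 24 h and 0.33 for COX6A2 at 48 h. After si-A1 at 48 h COX7B was at -0.00 and COX7B2 at 1.07 (adjusted p = 0.0431). That last value rests on dim spots, well above background on 2 of 11 arrays, both after si-A1, and the control values of 1.70 to 2.63 overlapped with the si-A1 values of 2.09 to 3.76.

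The effect of si-A1 and si-A2 at 48 h was compared with that at 24 h over the 30656 genes with a probe carried by both array versions, 83 of which were subunits. Probes took their 24 h name here, so COX7A1 is among the 83, although the same probe carried an identifier at 48 h that was not matched to the gene. None of the subunits passed this test of the difference for either siRNA (0.163% of all genes passed for si-A1 and 0.0424% for si-A2). At an unadjusted p below 0.05, 8 subunits passed for si-A1, 2 of them higher and 6 lower (12.6% of all genes passed), and 2 passed for si-A2, both lower (7.34% of all genes). The largest values for si-A1 belonged to the dim probes of COX7B2 and COX7A1, at 1.124 and 1.017 (adjusted p = 0.266 and 0.331). The lowest were NDUFB4, at -0.83 (SE 0.25, adjusted p = 0.136), and SDHB, at -0.63 (SE 0.20, adjusted p = 0.16). The 2 times were run on different array versions, so the time and the version cannot be told apart except through effects taken within each.

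Genes around the respiratory chain were counted from lists of its regulators, assembly factors, partners and neighbouring pathways. A further list held 7 genes chosen as arms of p53 on respiration, of which 6 were tested. At 24 h, SLC25A4, the adenine nucleotide translocase that exchanges ATP and ADP across the inner membrane, was the member of these lists that passed after si-A1, at -0.93 (SE 0.12, adjusted p = 0.0026). It was at -0.63 at 48 h (adjusted p = 0.00507), and at 24 h its si-A2 level exceeded the si-A1 level by 1.29 (adjusted p = 0.0011). After si-A2 at 24 h FDXR, the mitochondrial ferredoxin reductase and a known p53 target, was higher by 1.18 (adjusted p = 0.00147), and after si-A1 it was higher at 48 h by 0.74 (adjusted p = 0.0061). Of all genes, 0.901% changed in the first of these comparisons and 2.14% were higher in the second. FDXR was the 1 gene of the p53 list that passed in either of these comparisons.

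At 48 h after si-A1 more of these genes were lower. Over all genes 3.55% were lower in this comparison. Among the 19 partners of the chain tested, 5 were lower, of which cytochrome c (CYCS), the carrier between complexes III and IV, was at -1.16 (SE 0.08, adjusted p = 6.11e-05). DHODH, GPD2, SLC25A4 and the outer membrane channel VDAC3 were at -0.73, -0.58, -0.63 and -0.53. Among the 49 assembly factors tested, 4 were lower: NDUFAF3 at -1.22 (adjusted p = 0.000133) and PET117 at -0.84, with COX17, a copper chaperone of complex IV, at -0.70 and PET100 at -0.61. Of the 15 regulators tested, YY1 at -0.63 and SP1 at -1.30 were lower. Of the 17 tricarboxylic acid cycle genes SUCLA2 and DLST were lower, of the 15 glycolysis genes ENO1 and PGK1, and of the 77 mitochondrial ribosomal proteins MRPL18, MRPL19 and MRPS28. No gene of these 6 lists was higher. The medians of these 6 lists at 48 h after si-A1 ran from -0.37 (glycolysis) to -0.12 (assembly factors), beside -0.10 for the subunits and 0.06 for all genes. That of the p53 list was 0.21, with 1 of its 6 tested genes, FDXR, higher (2.14% of all genes were higher).

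After si-A2 at 48 h 1 gene of the same lists passed (0.406% of all genes did). This was GPD2, the mitochondrial glycerol 3-phosphate dehydrogenase, 1 of 19 partners tested, at -0.96 (SE 0.11, adjusted p = 0.00646). Compared with si-A1 directly at 48 h, CYCS, NDUFAF3, PET117, SUCLA2, DLAT and MRPL19 were higher after si-A2, by 0.61 to 1.75 (0.898% of all genes were higher). No probe was matched to the 13 subunits encoded by mitochondrial DNA, so these were not analysed here.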

How the data were processed

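RNA of LNCaP cells was labelled with Cy3 and hybridised to 24 one-colour Agilent arrays, in 6 groups of 4. The deposited scanner files hold intensity values, of which the processed signal, background-corrected by the scanner software, was used. The authors also deposited a table of normalised log2 values, used as an alternative. Per the submitters' processing notes the authors worked with R 3.4.3, limma 3.34.8 and the hg38 build. Here R 4.3.3 was used with limma 3.58.1, statmod 1.5.0 and the package data.table (version 1.17.8).

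Each time was processed apart, since the array versions differ. Intensities were taken to log2 and quantile-normalised. Probes were kept where they exceeded the mean plus 3 SD of the 308 negative controls on at least 3 arrays, and the brightest probe stood for a gene. Probes were named through their transcript identifiers, of which 57.4% matched RefSeq at 24 h and 53.4% at 48 h. limma (lmFit, eBayes) was fitted over all genes and the 3 siRNA groups with the slide as a term, with Benjamini-Hochberg adjustment. The procedure was tested on simulated data. The number of arrays limits the precision, and no spot of a subunit was saturated.

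The replicate number was checked as a pairing. Deviations of same-numbered arrays correlated at 0.19 to 0.36 at 48 h, where every pair was above 0.1, and at -0.15 to 0.15 at 24 h. Same-numbered arrays share a slide, which is a term of the fit, and within a slide the 48 h correlations were 0.02 to 0.09.

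The subunits described were all those that passed, the extremes of each complex, core subunits, isoform sets, those below background and those whose probes disagreed, with the genes of the pathway lists that passed. NDUFV2 and NDUFC2 fall outside these and were named after their values were seen. The members and lists were chosen with earlier results of these data known. Alternatives were other background corrections, scalings, filters, thresholds and designs, and leaving out each array. A threshold on linear negative controls was added after seeing the data. Upstream sequences came from RefSeq (GRCh38.p14).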

Additional observations from a re-analysis of the deposited data

How the results depend on the processing

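The number of subunits that passed after si-A1 at 24 h (1) was 2 with an adjusted p below 0.05 and no minimum change, with normexp, without background correction and with a trended robust eBayes, and 0 with only the groups compared or a filter on the interquartile range (0.5 or more). After si-A2 at 24 h (0) it was 1 under the first 4 of these settings. Between si-A2 and si-A1 at 24 h (2) it was 0 with only the groups compared and with the interquartile range. After si-A1 at 48 h (4) it was 2 with a minimum change of 1, 9 at an adjusted p below 0.05, 7 with the trended robust eBayes and 0 with the dim array. After si-A2 at 48 h (0) it was 3 at an adjusted p below 0.05 and 2 with normexp, without background correction and with the trended eBayes. Between si-A2 and si-A1 at 48 h (4) it was 2 with a minimum change of 1, without the slide or with the interquartile range, 8 at an adjusted p below 0.05, without background correction and with the trended eBayes, and 0 with only the groups compared or with the dim array.

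With the replicate number as a block, 0 subunits passed after si-A1 and 0 between si-A2 and si-A1 at 24 h, where same-numbered arrays did not deviate together. At 48 h, where they did, though little beyond the shared slide, 1 passed between si-A2 and si-A1 and 4 after si-A1. The block changed no other count or median call.

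The median log2 fold change after si-A1 at 24 h was 0.12 with 75th percentile scaling (0.13 over all genes). The interquartile range filter, which left few subunits, gave medians of -0.51 after si-A1, -0.022 after si-A2 and 0.56 between them at 24 h, and -0.72 after si-A1 and 0.79 between them at 48 h. With the dim array the 48 h median was -0.71 after si-A2 and -0.57 against si-A1, and the difference between the times for si-A2 was -0.76. The difference between si-A2 and si-A1 at 48 h then turned to -0.36 for NDUFS3 and -0.073 for SDHA, and the cause was not tested. With the interquartile range filter it turned to 0.23 for SDHC, which is the value of its dimmest probe, left to stand for the gene.

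Leaving out 1 array in turn gave 0 to 1 subunits after si-A1, 0 to 1 after si-A2 and 0 to 3 between them at 24 h, and 4 to 5, 0 to 0 and 0 to 4 at 48 h. Medians ran from -0.02 to 0.09, from 0.02 to 0.15 and from 0.03 to 0.09 at 24 h, and from -0.16 to -0.07, from -0.06 to 0.06 and from 0.05 to 0.16 at 48 h. For the difference between the times they ran from -0.18 to -0.06 for si-A1 and from -0.15 to 0.00 for si-A2, and 0 to 0 subunits passed. The highest 24 h medians after si-A1 and after si-A2 were those without si-SCRL replicate 3.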
